A study of Mus musculus with 25 samples.

Results

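Immediate early genes are switched on rapidly after a stimulus by factors already present in the cell, and their transcripts are short lived. Here 10 of them were read in myeloid cells of the mouse spinal cord, namely Fos, Fosb, Jun, Junb, Jund, Egr1, Atf3, Ier2, Btg2 and Dusp1. They were taken by name from the 22439 genes in the count matrices. FOS and JUN family proteins pair through a leucine zipper to form AP-1, and ATF3, another zipper protein induced by stress, can pair with JUN. EGR1 is a zinc finger factor, IER2 a nuclear regulator, BTG2 an antiproliferative cofactor and DUSP1 a phosphatase that switches off MAP kinases. In tissue macrophages and microglia the same genes are also known to respond to the handling needed to free cells from tissue, and a response to dissociation was not measured here.

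The data were droplet 3′ single-cell counts of 30958 sorted cells in 25 libraries, and per the labels each library pools tissue of 1 to 3 mice. The libraries came from laminectomy-only controls, in which the bone is opened and the cord is not injured (Ctrl, 2 libraries), and from injured cords. After injury, 5 libraries were of day 1 (D1), 4 of day 2 (D2), 7 of day 3 (D3), 5 of day 10 (D10) and 2 of day 21 (D21). All mice carried Cx3cr1CreERT2, which drives a tamoxifen-dependent Cre from Cx3cr1, a gene used by microglia and by many monocytes and macrophages. In Cx3cr1CreERT2 mice all YFP-positive cells were sorted (mixed, 12 libraries). In Cx3cr1CreERT2:R26tdTomato mice, which add a red reporter, RFP+/YFP+ cells (resident, 5) and RFP-/YFP+ cells (infiltrating, 7) were sorted. Sort and strain therefore cannot be told apart between mixed and other libraries. Libraries were of female or of male mice, sex was a term of the time course fits, and the labels give no age. D2_infiltrating 1 is labelled female, while the deposited cell table gives it the sex code of the male libraries, and the label was used. Without that library, Jun, Dusp1 and Atf3 kept their calls in macrophages from D1 to D10, and Junb gained one (-1.1, edgeR adjusted p = 0.04259). One further D3 library (D3_conflict 1) is titled infiltrating but labelled with both colours, and it was left out of the time course fits. It is in the comparisons made within a library and in the cluster values. The labels give 1 preparation for all samples, with mechanical homogenisation, removal of myelin on Percoll and flow sorting before capture.

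Libraries held 155 to 3800 cells and 486649 to 33204422 UMIs, with median counts per cell of 1577 to 11233. The deposited table gives each cell 1 of 4 cell type codes without names, and the codes were named by markers. The first code (13289 cells) had 9 of 9 microglia markers, and the second (12841 cells, called macrophages) had 5 of 8 monocyte and 7 of 9 macrophage markers. The third (2712 dendritic-like cells) had 6 of 8 dendritic markers, and the fourth (2116 neutrophil-like cells) had 7 of 7 neutrophil markers. The libraries lay in 7 sequencing pools that were split unevenly over time, and 127 cell barcodes of 16 bases occurred in 2 or more libraries. Counts were summed per library and cell type with at least 20 cells, the library is the replicate, and p-values measure only the spread between these libraries. In a summed library, fewer cells that use a gene and less RNA per cell cannot be told apart.

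The promoters of 8 of the 10 genes were taken from the RefSeq table for GRCm38.p6. Those of Ier2 and Egr1 were left out and not searched, so the motif results do not cover these genes. Both strands were searched from 250 bases before to 50 after the start. The motifs were CRE, the full cyclic AMP response element with the letters TGACGTCA, and the CArG box of SRF. The AP-1 motif was searched as TGACTCA, which is the site that FOS and JUN pairs are known to bind. For EGR1 and its relatives the letters were GCGTGGGCG. The TATA motif was searched as TATAAA, the usual form of that core promoter element. The GC box, known as a site of SP1, was searched as GGGCGG. The promoters of 4 genes are printed for their bases before the start, because Btg2 and Jun fell in microglia after injury while Atf3 rose, and Dusp1 fell in macrophages. Capitals mark matches to CRE and the GC box, which abut in Dusp1, and all 4 genes lie on the minus strand. In the GENCODE annotation of GRCm38, the protein-coding genes span chr1:134075170-134079120 (Btg2), chr4:95049034-95052222 (Jun), chr1:191170296-191218039 (Atf3) and chr17:26505590-26562128 (Dusp1).
Btg2, chr1:134079156-134079405: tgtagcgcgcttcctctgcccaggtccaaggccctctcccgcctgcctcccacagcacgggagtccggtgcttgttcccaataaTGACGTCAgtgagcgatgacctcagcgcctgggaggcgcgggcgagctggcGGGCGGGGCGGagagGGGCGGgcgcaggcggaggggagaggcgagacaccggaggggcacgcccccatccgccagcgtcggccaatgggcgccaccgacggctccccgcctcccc
Jun, chr4:95052223-95052472: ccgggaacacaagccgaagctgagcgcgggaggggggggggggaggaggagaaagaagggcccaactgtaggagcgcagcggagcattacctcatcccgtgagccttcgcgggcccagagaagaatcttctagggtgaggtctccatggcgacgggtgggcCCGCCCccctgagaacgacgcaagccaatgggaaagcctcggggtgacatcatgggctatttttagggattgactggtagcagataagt
Atf3, chr1:191183334-191183583: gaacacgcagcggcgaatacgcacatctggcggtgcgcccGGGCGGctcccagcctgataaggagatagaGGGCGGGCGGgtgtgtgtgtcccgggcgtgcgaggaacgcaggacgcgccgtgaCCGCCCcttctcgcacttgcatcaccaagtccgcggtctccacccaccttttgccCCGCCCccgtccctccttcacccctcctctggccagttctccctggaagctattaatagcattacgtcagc
Dusp1, chr17:26508473-26508722: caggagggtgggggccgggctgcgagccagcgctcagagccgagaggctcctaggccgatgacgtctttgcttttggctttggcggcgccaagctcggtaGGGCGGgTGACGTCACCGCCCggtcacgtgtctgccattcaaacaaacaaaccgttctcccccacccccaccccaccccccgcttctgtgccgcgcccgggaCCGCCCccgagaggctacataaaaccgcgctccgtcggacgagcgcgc
The CRE match began 166 bases before the start of Btg2 and 143 before that of Dusp1. Those were the 2 genes of 8 that held one, and 1.79% of all 32851 promoters in the table did. The GC box lay in 6 of the 8 (Atf3, Btg2, Dusp1, Fos, Fosb and Jun) and in 35.66% of all promoters, and TATA in 2 (Fos and Junb) and in 13.62%. No match to AP-1, the CArG box or EGR was found in the 8, against 5.2%, 1.63% and 0.61% of all promoters. These are matches of letters in a fixed window. For Jund, Atf3 and Dusp1 the gene of the GENCODE annotation starts elsewhere than the RefSeq window, and no match was read as a binding site.

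In microglia, Btg2 and Jun fell after injury, and Atf3 rose. Btg2 stood at 282 and 231 in the 2 control libraries, in scaled CPM, the share of the summed library's counts after TMM scaling. It was 16.5, 11.3 and 17.4 in the 3 libraries of D1 and 12.6, 5.79 and 52.1 at D2. At D3 it ranged from 18.4 to 36.9 over 5 libraries, with a median of 24.1. All injured libraries lay below both controls. At D10 it stood at 76.9, 111.6 and 85.4 and in the single D21 library at 102. The D10 libraries were thus above all D1, D2 and D3 libraries and still below the controls.

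Jun, the best known partner of FOS in AP-1, was also below controls at every time after injury, with its lowest levels at D3. Its scaled CPM was 594 and 373 in controls, and 107, 76.6 and 88.2 at D1. At D2 it was 62.2, 46.3 and 179, and at D3 it ran from 32.6 to 128. At D10 the 3 libraries stood at 142, 225 and 172, and at D21 the 1 library stood at 128. No injured library reached either control. The library at 128 at D3, D3_mixed 3, was above the other 4, which ended at 55.2, and that library also held 3019 macrophages, the most of any.

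Atf3 moved the other way. It stood at 25.5 and 14.4 scaled CPM in controls and at 206, 95.9 and 87.1 at D1. At D2 it was 60.8, 34.8 and 63.3, and at D3 it ranged from 44.0 to 147 with D3_mixed 3 again highest. At D10 it was 153, 196 and 173, and at D21 it was 209. Every injured library lay above both controls, and D2 and most D3 libraries lay lowest among the injured.

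**Figure D1:**
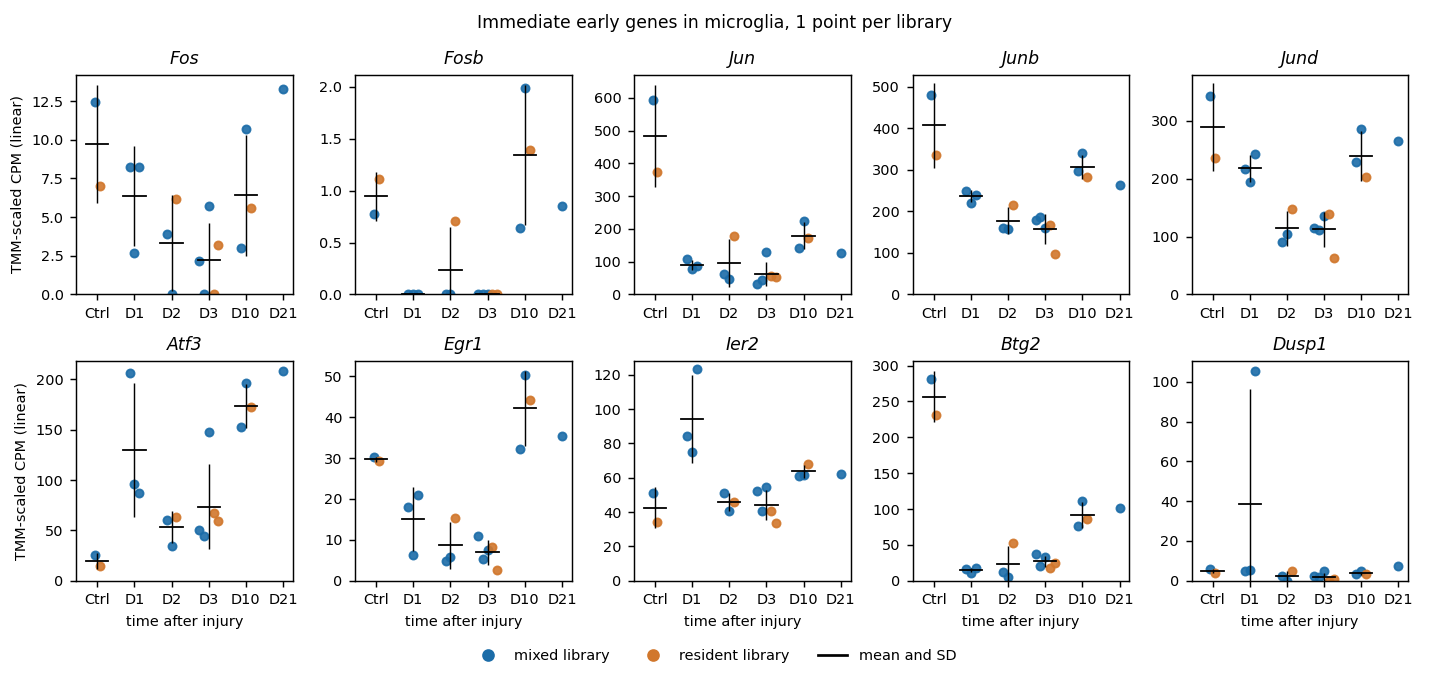
Scaled CPM (y axis, from 0) of each of the 10 genes in microglia by time point (x axis). Each point is 1 library of the resident or mixed sort, and the bars are the mean and SD where a time has more than 1 library. Btg2 drops from 231 to 282 in controls to 11.3 to 17.4 at D1 and returns to 76.9 to 111.6 at D10, while Atf3 rises from 14.4 to 25.5 to 87.1 to 206 at D1.

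At D1 against Ctrl, 9 of the 10 genes could be tested, and 2 were higher and 3 lower at an adjusted p under 0.05 in edgeR's quasi-likelihood test. Over all 10801 genes tested, 23.9% were higher and 22.7% lower, so 2 and 3 of 9 are near the background. Fosb was left out of the fit by the filter on low counts, with 9 UMIs in all controls and 0 at D1. Btg2 fell by 4.36 on the log2 scale (SE 0.47, edgeR adjusted p = 6.574e-06), and Jun fell by 2.54 (SE 0.53, adjusted p = 0.0009072). Junb, another JUN partner, fell by 0.77 (adjusted p = 0.03792), from 479 and 335 scaled CPM in controls to 248, 219.9 and 240.0. Atf3 rose by 2.76 (SE 0.54, adjusted p = 0.0005865), and Ier2 by 1.25 (SE 0.31, adjusted p = 0.003423), from 51.0 and 34.0 to 84.2, 75.0 and 124. The median log2 fold change was -0.70 over the 9 genes and -0.01 over all genes.

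The rest did not pass at D1. Jund had a log2 fold change of -0.40, Fos of -0.70 and Egr1 of -1.07 (edgeR adjusted p = 0.338, 0.4215 and 0.08561). Dusp1 had 2.74 (SE 1.14, edgeR adjusted p = 0.05709), and this rested on 1 library. Its scaled CPM was 5.69 and 4.07 in controls and 5.08, 5.64 and 105 at D1. D1_mixed 3, at 105, stood apart. In the same library the unscaled CPM of Cxcl2, a chemokine of the rapid response, was 202 against 2.19 and 1.14 in D1_mixed 1 and 2. Cluster 2 of the deposited table, whose cells have a low median of 1876 UMIs, made up 46.2% of its microglia against 15.0% and 14.9%. Without the cells of cluster 2, Dusp1 had 2.35 (edgeR adjusted p = 0.1052).

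The calls at D1 differed in how well they held. Btg2, Jun and Atf3 kept theirs without any 1 of the 17 libraries. Ier2 lost its call without Ctrl_resident 1 (1.02, edgeR adjusted p = 0.084) and with no scaling between libraries (0.52, adjusted p = 0.158), and Junb lost its call without any of 11 single libraries, for example Ctrl_mixed 1 (-0.51, adjusted p = 0.2538). TMM factors were 1.38 and 1.46 in controls and 0.77 to 1.28 elsewhere. The median log2 fold change of all genes against Ctrl was -0.08 to -0.01 over the time points with TMM and -0.94 to -0.40 without scaling, and fold changes here are those after TMM scaling. The split over all genes went from 2577 higher and 2457 lower to 1282 and 4383 at D1. It went from 1896 and 1314 to 1265 and 2617 at D2, from 2168 and 1896 to 1176 and 3956 at D3, from 871 and 240 to 494 and 2161 at D10, and from 661 and 93 to 317 and 1845 at D21.

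The same loss was seen cell by cell. After thinning each cell to 1000 UMIs, Btg2 had a UMI in 26.9% and 30.6% of control microglia and in 1.39% to 1.67% at D1. Unthinned, those shares were 63.8% to 67.6% and 3.92% to 5.01%. Jun had a UMI in 35.4% and 46.5% of thinned control cells and in 5.32% to 8.72% at D1 (68.6% to 76.2% and 16.6% to 24.6% unthinned). Atf3 went from 0.87% and 3.08% to 5.53% to 16.7% at D1 and 10.3% to 12.2% at D10. Thinning left out 0 control, 6 D1 and 0 D10 microglia for being too shallow. Of the 10 genes, a thinned control cell held on average 1.32 and 1.69, and a D3 cell 0.28 to 0.59.

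At D2 and D3, Egr1 and Jund were called lower beside Btg2, Jun and Junb, and the difference from D1 was tested for D3 alone. At D2, 1 of 9 tested genes was higher (Atf3, 1.52) and 5 were lower, against 17.6% higher and 12.2% lower over all genes. At D3, 1 was again higher (Atf3, 1.96) and 5 lower, against 20.1% and 17.6%. The 5 lower genes were the same at both times, and both comparisons share the control libraries. Btg2 had log2 fold changes of -3.27 at D2 and -3.46 at D3 (edgeR adjusted p = 0.0001098 and 1.735e-05). Jun had -2.29 and -2.99, Jund -1.31 and -1.37, Junb -1.17 and -1.37 and Egr1 -1.55 and -2.34. Fos had -1.04 and -1.77, Ier2 0.17 and 0.13 and Dusp1 -0.46 and -1.24, none past the threshold. Fos at D3 passed as lower in some other settings, among them DESeq2 (-2.04, adjusted p = 0.03084). It had 16 UMIs over the D3 libraries and 115 over the controls. The median over the 9 genes was -1.16 at D2 and -1.37 at D3, beside -0.02 and -0.04 over all genes.

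Egr1 and Jund, which did not pass at D1, were lower in each D2 and D3 library than in both controls. Egr1 had 30.2 and 29.2 scaled CPM in controls, 4.86, 5.79 and 15.4 at D2 and 2.67 to 10.9 at D3. Its D1 libraries, at 18.1, 6.30 and 20.95, were also below both controls. The fall of Egr1 at D1 passed in some other settings, among them median-of-ratios scaling (-1.24, edgeR adjusted p = 0.04845). From D1 to D3, Egr1 was not called (-1.27, edgeR adjusted p = 0.07389). Jund, the AP-1 subunit that most cells keep at rest, had 343 and 235 in controls, 90.9, 104 and 148 at D2 and 63.6 to 139 at D3. One of the D2 sums, D2_mixed 2, held 23 microglia only. The D2 calls were the less stable ones: without Ctrl_mixed 1 (Jun -1.72, edgeR adjusted p = 0.0786) or D2_mixed 1 (Jun -1.85, adjusted p = 0.05019), Btg2 alone of the 6 kept its call. Atf3 lost its call also without Ctrl_resident 1 (1.16), without D2_resident 1 (1.36) and with no scaling (1.14), and Egr1 without Ctrl_resident 1 (-1.72). At D3, Atf3 lost its call without Ctrl_resident 1 (1.58, edgeR adjusted p = 0.0987) and Jund without Ctrl_mixed 1 (-1.04, adjusted p = 0.05259).

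The D3 values changed with a term for the sequencing pool, and the cause was not tested. No D3 library shared a pool with a control. With a term for the pool, which ties D3 to Ctrl only through other time points, Btg2 had -0.53 at D3 (edgeR adjusted p = 0.8007), and Jun changed sign to 0.33. In that fit 1 gene of 9 was called at D3 (Atf3) and 3 at D2 (Jun, Atf3 and Btg2). The share of all genes called with the pool term is not given here, so a general loss of calls cannot be told apart. No such fit could be had for D1 or D21 against Ctrl, so there the pool cannot be told apart from time. At D10, for which 2 pools hold both controls and D10 libraries, the fit with the pool called Jun, Atf3 and Btg2. With the mixed libraries alone, which leave 1 control, 0 genes were called at D1, D3, D10 and D21, with Btg2 at -3.08 and Atf3 at 3.18 for D1. At D2 the 5 lower genes kept their calls there and Atf3 did not. The lone control there is assumed to vary like the other libraries. That control is of a female, and the mixed D1, D3 and D10 libraries are of males. In this fit D2_mixed 1 and D2_mixed 2 alone told sex apart from time, and D2_mixed 2 held 23 microglia. The estimates at D1, D3 and D10 with mixed libraries alone therefore lean on these D2 libraries.

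At D10, Atf3 was higher (3.14, SE 0.52, edgeR adjusted p = 0.0008332) and Btg2 lower (-1.61, SE 0.41, adjusted p = 0.01706) than in controls. That is 1 of 9 in each direction, against 8.06% and 2.22% of all genes. Jun had -1.49 (edgeR adjusted p = 0.05976), and its 3 libraries lay below both controls. Jun passed in 14 other settings, among them DESeq2 (-1.58, adjusted p = 0.02943) and the pool term (-1.40, adjusted p = 0.000457). Btg2 lost its call without Ctrl_mixed 1 (-1.08, adjusted p = 0.3638), D10_mixed 1 or D10_resident 1. At D21, with 1 library, Atf3 alone was called (3.31, SE 0.60, edgeR adjusted p = 0.001862), against 6.12% of all genes higher. A single library has no spread of its own, so the SE and p at D21 assume that it varies like the libraries of the other times. Egr1 had log2 fold changes of 0.46 at D10 and 0.34 at D21, with 95% intervals of -0.50 to 1.42 and -0.96 to 1.64. The other estimates at D10 ran from -0.68 (Fos) to 0.62 (Ier2), and at D21 from -1.84 (Jun) to 0.65 (Dusp1). The 3 D10 libraries of Egr1, at 32.1, 50.2 and 44.1 scaled CPM, lay above both controls after TMM scaling. In unscaled CPM they stood at 30.6, 47.2 and 42.1 against 41.6 and 42.6, with 1 of 3 above both, and with no scaling the estimate was -0.12 (edgeR adjusted p = 0.858).

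**Figure D2:**
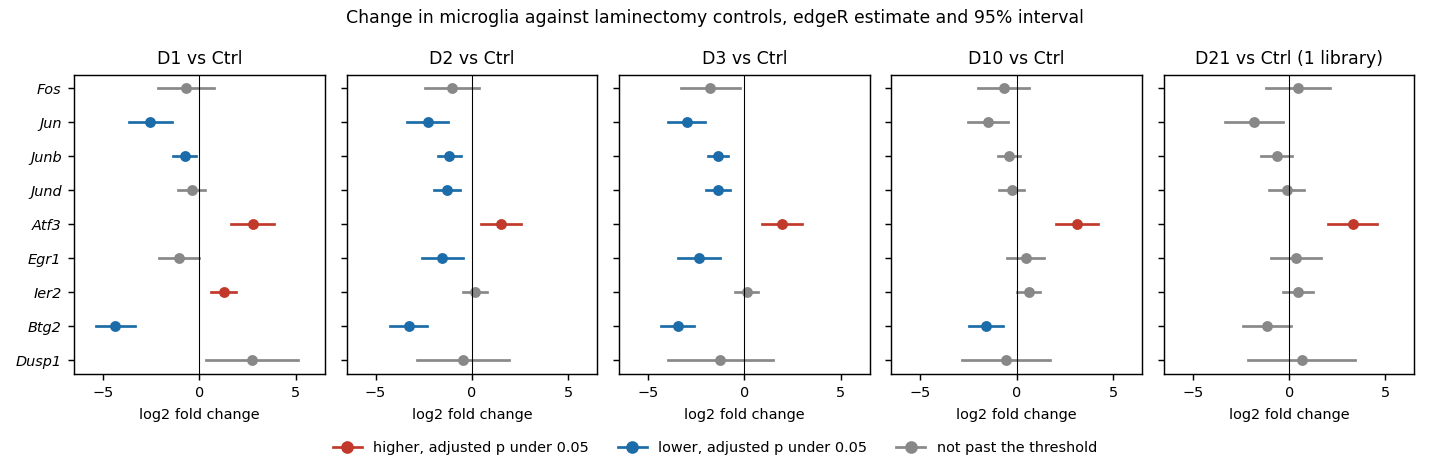
Log2 fold change against laminectomy controls (x axis) of each tested gene (y axis) in microglia, 1 panel per time point, as the edgeR estimate with its 95% interval. Btg2 and Jun lie left of 0 at D1, D2 and D3 and Atf3 right of 0 at every time point, and Egr1 passes from -2.34 at D3 to 0.46 at D10.

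Between D1 and D3, 3 of 9 genes fell, against 10.2% of all genes: Jund by 0.96, Ier2 by 1.12 and Dusp1 by 3.97 (edgeR adjusted p = 0.01574, 0.003201 and 0.009631). Ier2 ranged from 33.7 to 54.7 scaled CPM at D3, below the 75.0 to 124 of D1, and D1 and D3 did not overlap. The Dusp1 call rested on D1_mixed 3, and without it Dusp1 had -1.15 (edgeR adjusted p = 0.2082). Without the cells of cluster 2 it had -3.75 (adjusted p = 0.02026). Jund lost its call without the cells of cluster 2 (-0.76, adjusted p = 0.0658). The 6 other genes, not past the threshold, had -1.27 (Egr1), -1.08 (Fos), -0.795 (Atf3), -0.60 (Junb), -0.44 (Jun) and 0.90 (Btg2).

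Between D3 and D10, 5 of 9 genes rose, against 2.96% of all genes higher, and none fell. Egr1 rose by 2.80 (SE 0.46, edgeR adjusted p = 0.00235), Btg2 by 1.85 (SE 0.36, adjusted p = 0.007952) and Jun by 1.49 (adjusted p = 0.03497). Jund rose by 1.10 and Junb by 0.97 (adjusted p = 0.01913 and 0.01699). Fos, Atf3, Ier2 and Dusp1 had 1.095, 1.17, 0.49 and 0.70 and did not pass. The D10 libraries of the 5 genes that rose lay above all D3 libraries. These genes were picked by the test on the same libraries, so this is no further support. The share of all genes set apart in this way was not counted. The median was 1.10 over the 9 genes and 0.05 over all genes. D3 and D10 shared no pool, and with the pool term none of the 9 was called (Btg2 -0.98, Jun -1.73, Jund -0.18, Egr1 0.78). Without D10_mixed 2, Jun (1.31, adjusted p = 0.213), Btg2 (1.75, adjusted p = 0.0876), Jund (0.91) and Junb (0.85) lost their calls. Without D10_mixed 1, Jund and Junb lost theirs, and Jun lost its call without any of 8 libraries (1.31 to 1.67): D10_mixed 1 and 2, D10_resident 1, D1_mixed 2, D3_mixed 1 and 2, and D3_resident 1 and 2. Egr1 kept its call without any 1 library. Median UMIs per cell were 1577 to 3421 in D3 microglia and 2606 to 3050 at D10. With all cells thinned to 1000 UMIs, Jund, Egr1 and Btg2 kept their calls.

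Other signs moved with time in the same microglia. The summed CPM of 9 microglia markers was 26610 to 30010 in controls, 4787 to 9100 at D1, 7074 to 13230 at D2, 11000 to 14620 at D3 and 14370 to 16050 at D10. Monocyte markers summed to 8.93 to 22.1 in controls and to 195 to 475 at D1, with none of the 8 at 0 in either. The 12 heat shock and chaperone genes summed to 3383 to 5132 CPM in controls, 8078 to 10980 at D1 and 3889 to 5504 at D3. Of 11 tested, 8 were higher at D1 than in Ctrl and 0 lower, against 23.9% and 22.7% of all genes, among them Hspd1 (3.01), a mitochondrial chaperone, and Hspb1 (3.75), a small heat shock protein. Hspa1a, an inducible heat shock gene, stayed at or below 4.375 CPM in every microglial sum. The part of these shifts in the results was not tested.

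Microglia of mixed and resident libraries did not differ in any of the 9 genes (edgeR, 0 called, 0 at an unadjusted p under 0.05, and 0 by DESeq2), and 0.148% of all genes were called in either direction. The estimates ran from -0.21 (Btg2) to 0.34 (Dusp1). The interval for Btg2 was -0.83 to 0.42, and that for Dusp1 was -1.56 to 2.23, so a difference of a few fold in Dusp1 was not detectable.

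Related genes, listed apart from the 10, were read in the same fits. Their counts stand beside 23.9% higher and 22.7% lower over all genes at D1. Of 15 other leucine zipper factors, 7 were higher and 1 lower at D1 than in Ctrl, with a median of 1.07. Maff, a small MAF protein, rose by 3.66 (SE 0.59, edgeR adjusted p = 0.0001224), and Cebpd, a C/EBP factor, fell by 0.94. Fosl1, a FOS family member, had 0 UMIs in controls and 48 at D1, of which 40 were in D1_mixed 3. Of 19 other immediate early genes tested, 2 were higher and 7 lower, with a median of -0.85. Gadd45b, a stress gene, rose by 4.26 and Ier3 by 3.12 (edgeR adjusted p = 0.0006662 and 0.001205), while Egr2 fell from 1.79 to 4.32 CPM over the controls to 0.219 to 0.570 at D1, and Egr3 from 0.893 to 6.47 CPM to 0 to 0.219. Among 9 genes of the rapid cytokine list, 4 were higher and 1 lower. Ccl4, a chemokine, rose by 6.36 (SE 0.77, adjusted p = 1.43e-05), and Il1a, which encodes interleukin-1 alpha, fell by 1.55.

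The other lists at D1 are read beside the same shares. Of 19 kinases and factors upstream, 4 were higher and 6 lower at D1. Mapkapk2, a kinase downstream of p38, rose by 2.18 and Srf by 1.62, while Mapk8, which encodes JNK1, fell by 2.67 and Elk4, an SRF partner, by 2.09. Of 7 other dual specificity phosphatases tested, 3 rose, Dusp5 by 2.84 and Dusp2 by 2.76 among them, and 3 fell, among them Dusp7 (-2.47) and Dusp16 (-2.21). In the family of Btg2, Btg3 rose by 1.66, and Tob2 (-2.53) and Tob1 (-1.61) fell, with 1 higher and 3 lower of 4. Of 9 NF-kB genes, 1 was higher (Bcl3, 1.60) and 3 lower, Rel and Nfkb1 by 1.96 and 1.95 among them.

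At D3, 10 of 19 other immediate early genes were lower than in Ctrl and 1 higher. Over all genes, 20.1% were higher and 17.6% lower. Zfp36, which encodes an RNA-binding protein that speeds mRNA decay, fell by 2.32 (SE 0.29, edgeR adjusted p = 3.03e-05), from 159 and 199.6 CPM to 16.9 to 28.9. Trib1, a pseudokinase, fell by 1.97. Maff (2.79), Gadd45b (2.94), Ccl4 (4.67) and Ccl3 (4.55) were higher, and Il1a (-2.88), Batf3 (-2.26) and Cebpd (-1.89) lower. Other zipper factors counted 3 higher and 2 lower of 15, upstream kinases and factors 3 and 5 of 19, phosphatases 1 and 3 of 7, the Btg2 family 0 and 2 of 4 (Tob2 -1.86, Btg1 -1.54) and NF-kB genes 0 and 2 of 9 (Rel -1.38, Nfkb1 -1.07). The counts of zipper factors, upstream genes and NF-kB genes are near or below the background.

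At D10, 1 of 19 other immediate early genes was higher and 2 lower, against 8.06% and 2.22% of all genes, so the count of higher genes is not above the background. Egr2, a relative of Egr1, rose by 2.76 (edgeR adjusted p = 0.008703), from 1.79 to 4.32 CPM over the controls to 13.3 to 13.8 at D10. Socs3, an inhibitor of cytokine signals, fell by 1.61, and Rhob by 1.14. Maff (3.87), Atf5 (1.48), Dusp3 (1.39), Ccl4 (6.12) and Ccl3 (5.25) were higher, and Cebpd (-1.52), Il1a (-1.50) and Mapk14 (-1.01), which encodes p38 alpha, lower.

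Over the 17 microglial sums, the genes differed in how they varied together. Junb and Jund had a Pearson r of 0.94 on log2(CPM + 1), Jund and Egr1 0.881, Jun and Junb 0.88 and Jun and Btg2 0.852. Atf3 stood apart, with r of -0.158 to 0.3 against the other 8. Ier2 followed Dusp1 (0.748) more than Btg2 (0.05). The sums share time points, pools and depths. Outside the 10, the genes most like their mean were Slc31a2 (0.943), a copper transporter, Cst3 (0.928), a protease inhibitor abundant in microglia, Slamf8 (0.917), Tns1 (0.917), Zfp354a (0.895) and Sox4 (0.892). Mob3c (0.879), Ccdc171 (0.874), Zdhhc24 (0.873) and Selenos (0.871) followed.

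In the macrophage fit D1 was the reference, because the controls held no macrophages. Dusp1, Jun and Atf3 fell between D1 and D10. Jun stood at 930.4, 864, 933 and 385 scaled CPM in the 4 D1 libraries and at 171, 166, 119 and 129 in the 4 D10 libraries. Dusp1 went from 174, 79.7, 249 and 589 to 10.9, 19.1, 9.01 and 11.7. Atf3 went from 262, 325, 268 and 105 to 123, 78.0, 57.1 and 71.5. The groups did not overlap for Jun and Dusp1, while for Atf3 the lowest D1 library, D1_mixed 3, lay below the highest D10 library.

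These 3 of 9 tested genes were lower at D10, against 7.04% of all 8577 genes, and none was higher. Dusp1 had a log2 fold change of -4.49 (SE 0.94, edgeR adjusted p = 0.008769), Jun of -2.41 (SE 0.43, adjusted p = 0.003722) and Atf3 of -1.60 (SE 0.49, adjusted p = 0.04216). The Atf3 call was lost without any 1 of the 4 D10 libraries, either D1_infiltrating library or D1_mixed 1 (-1.28 to -1.71, adjusted p up to 0.158), and with at least 50 cells a sum or without cluster 2. D1 and D10 shared no pool, and no fit with the pool could be had, so pool and time of these macrophages cannot be told apart. Junb had -1.12 (adjusted p = 0.05518) and passed in DESeq2 (-1.07, adjusted p = 0.02573). Btg2 had -0.62, with an interval of -2.14 to 0.90, and Jund, Ier2, Fos and Egr1 had -0.47, -0.49, -1.60 and -1.64, none past the threshold. Without the cells of cluster 14, which held 44 of 66 and 134 of 263 Dusp1 UMIs in D1_mixed 1 and 3, Jun, Atf3 and Dusp1 (-3.94, edgeR adjusted p = 0.01274) kept their calls, and Btg2 and Egr1 had 0.02 and -0.64. The median was -1.59 over the 9 genes and 0.01 over all.

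**Figure D3:**
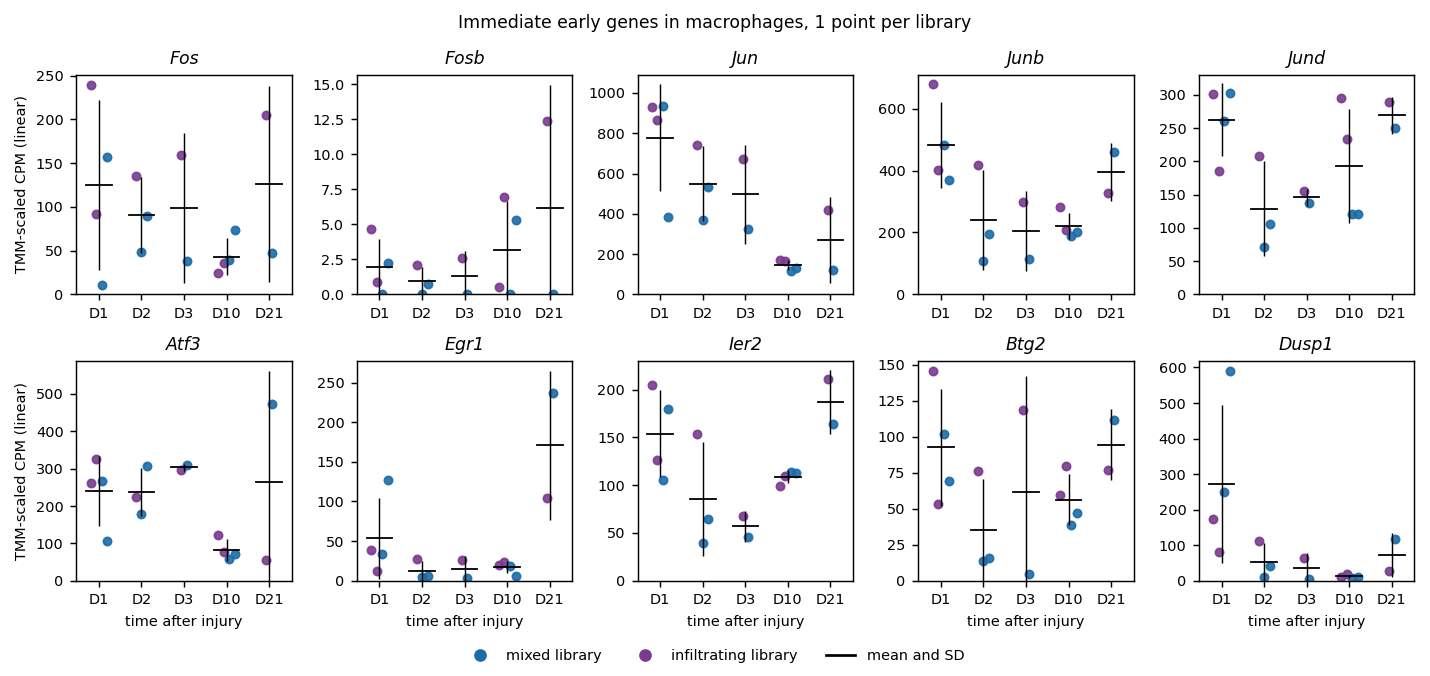
Scaled CPM (y axis, from 0) of the 10 genes in macrophages by time point (x axis), 1 point per library of the infiltrating or mixed sort with bars at the mean and SD. Jun lies at 385 to 933 at D1 and at 119 to 171 at D10, and Dusp1 at 79.7 to 589 and 9.01 to 19.1.

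At D2 and D3, 0 of 9 genes were called against D1 in edgeR, as were 0% of all genes. The estimates ran from -2.37 (Dusp1) to -0.18 (Atf3) at D2 and from -2.90 (Dusp1) to 0.47 (Atf3) at D3. Unadjusted, 5 were below 0.05 at D2 and 3 at D3, all lower than D1, and DESeq2 called 0 at both. At D21, 0 of 9 were called, 1 was below 0.05 unadjusted and lower, and DESeq2 called 0, beside 3.56% of all genes in either direction, with estimates from -2.16 (Dusp1) to 1.51 (Egr1). Libraries of 1 time point were far apart. Btg2 had 119 scaled CPM in D3_infiltrating 1 and 4.63 in D3_mixed 3, and Dusp1 had 65.0 and 4.80, while Atf3 had 297 and 310.3. At D2, D2_infiltrating 1 had 76.6 for Btg2 and D2_mixed 1 and 2 had 13.8 and 15.5. The D21 libraries, of 89 and 78 macrophages, had 421 and 121 for Jun and 55.1 and 474 for Atf3. In the second, D21_mixed 1, 1 cell of cluster 14 held 82 of the 110 Atf3 UMIs, 37 of the 55 Egr1 UMIs and all 27 Dusp1 UMIs. Without it the unscaled level of Atf3 was 88.4 in place of 328 CPM. Without cluster 14 the estimates at D21 were -1.56 for Atf3, -3.40 for Dusp1 and 1.91 for Egr1, and none passed.

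The makeup of the macrophages by deposited cluster moved with these values. Cluster 12 held 39.2% and 9.7% of the macrophages in the infiltrating D1 libraries, 3.6% and 0% in the mixed ones, 22.8% in D3_infiltrating 1, 0.3% in D3_mixed 3 and 0% to 2.9% at D10. Cluster 11 held 37.1% and 66.6% in the infiltrating D1 libraries, 10.7% and 29.6% in the mixed ones and 0% to 3.8% at D10. Cluster 9 held 88.6% in D3_mixed 3 and 14.7% to 78.7% in the D10 libraries of the fit. Summed monocyte markers ran from 4123 to 6780 CPM at D1 and from 771 to 5792 at D10. Their part in the change was not tested.

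The related lists in macrophages are read beside 7.31% of all genes higher and 7.04% lower at D10 than at D1. Of 18 other immediate early genes tested, 10 were lower and 0 higher, with a median of -1.56. Ier3, a regulator of cell survival, fell by 4.19 and Socs3 by 3.29 (edgeR adjusted p = 0.001727 and 0.002115). Of 14 other zipper factors, 7 were lower, among them Maff (-3.34) and Fosl1, at 8.55 to 67.8 CPM over the D1 libraries and 0 to 0.496 at D10, and 1 was higher (Batf3, 1.85). Of 9 rapid cytokine genes, 5 were lower and 0 higher. Ccl2, the ligand of CCR2, fell by 7.12 (SE 0.78, adjusted p = 0.0001813), and Cxcl2 ran from 84.8 to 4225 CPM over the D1 libraries and from 0 to 1.24 at D10. The upstream list had 2 higher (Mapk14 1.44, Rps6ka1 1.39) and 2 lower (Map2k3 and Map2k1, the second at -1.42) of 17. One of 7 phosphatases (Dusp3, -1.21), 1 of 9 NF-kB genes (Nfkbia, -1.90) and 1 of 11 heat shock genes (Hspa5, -1.05) were lower, which is near the share over all genes, and 0 of 3 genes of the Btg2 family changed.

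Set beside each other within 1 library, macrophages had more Fos and Dusp1 than microglia. In 14 libraries with at least 20 cells of both, 4 of 9 genes were higher in macrophages and none lower, against 15.6% of all genes higher. Fos was higher in 14 of 14 libraries, with a median CPM of 46.2 (10.2 to 219) against 4.67 (0 to 10.2), and its log2 fold change was 3.37 (SE 0.37, edgeR adjusted p = 7.587e-07). Dusp1 was higher in 13 of 14, at 29.6 (3.85 to 639.8) against 3.08 (0 to 88.7), with a change of 3.095 (SE 0.46, adjusted p = 2.774e-05). Jun was higher in 11 of 14 (1.66, SE 0.36, adjusted p = 0.001261) and Ier2 in 12 of 14 (0.84, SE 0.19, adjusted p = 0.002562). Without the cells of cluster 14, Dusp1 had 2.40 (edgeR adjusted p = 0.0002934). With at least 50 cells a sum, Jun lost its call (1.16, adjusted p = 0.07247). Junb and Atf3 had 0.35 and 0.68 and did not pass. Btg2, Jund and Egr1 had 0.21, 0.11 and 0.63, with intervals of -0.58 to 0.99, -0.23 to 0.45 and -0.34 to 1.61.

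**Figure D4:**
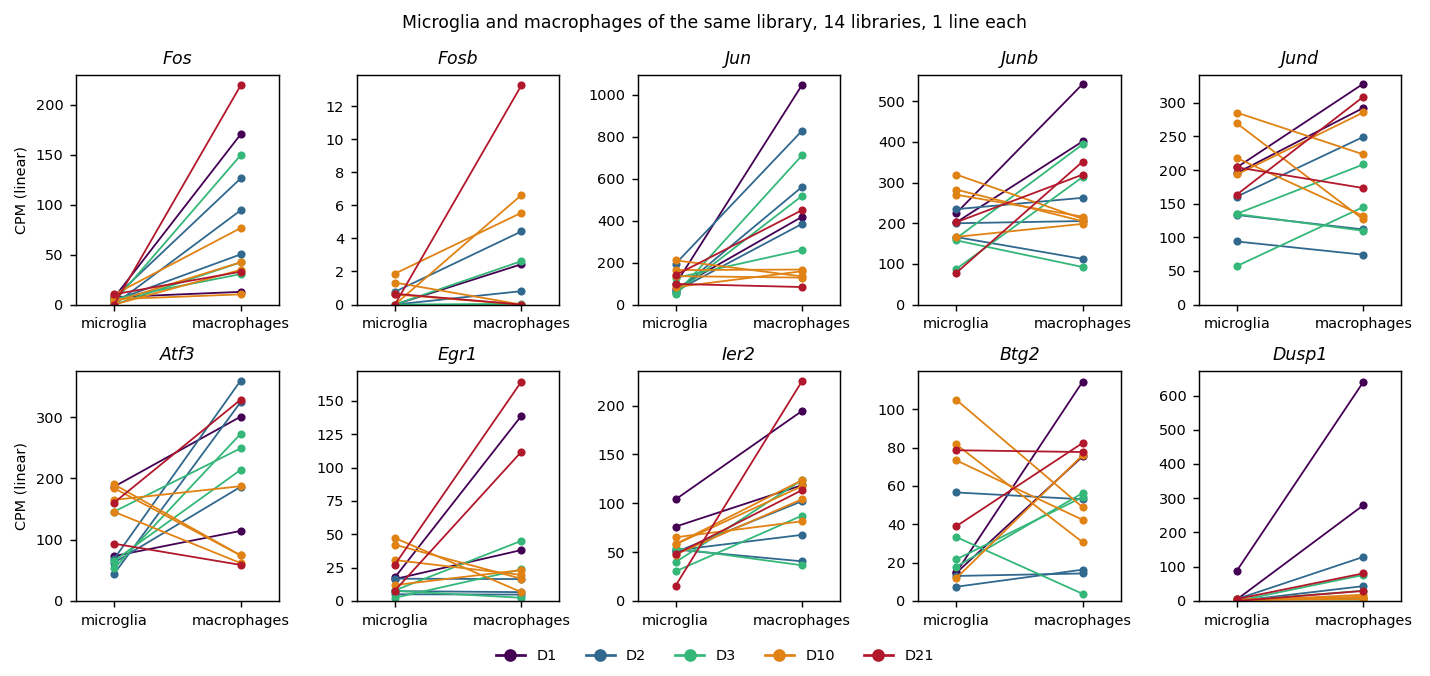
CPM (y axis, from 0) of each gene in the microglia and the macrophages of the same library, joined by a line for each of 14 libraries and coloured by time point. All 14 lines rise for Fos, and 13 of 14 for Dusp1, while for Jund 7 rise and 7 fall.

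The change of Jun from D1 to D10 was called as different between the cell types, with 28 and 54 macrophages in the D1 libraries. That call was lost without either D1 library. Calls for Egr1 and Btg2 rested on fewer cells still. Jun in macrophages was above Jun in microglia at D1, with 1047 against 97.1 CPM in D1_mixed 1 and 418 against 74.3 in D1_mixed 3. At D10 the pairs were 159 and 83.2 (D10_infiltrating 2), 167 and 165 (D10_resident 1), 129 and 136 (D10_mixed 1) and 134 and 211 (D10_mixed 2). The lead of macrophages was large in both D1 libraries. At D10 it was smaller in D10_infiltrating 2, and slight or absent in D10_resident 1 and the D10_mixed libraries. Egr1 was 38.1 against 16.4 and 139 against 17.6 at D1, and below microglia in 3 of the 4 D10 libraries. Btg2 was 114 against 14.9 and 75.4 against 14.6 at D1, and at D10 it was 42.3 against 73.3 in D10_mixed 1, 48.8 against 105 in D10_mixed 2 and 30.6 against 81.6 in D10_resident 1. In D10_infiltrating 2, with 36 microglia, macrophages were higher, at 76.1 against 11.9. Most of the D1 counts of Btg2 and Egr1 came from the 4 and 13 macrophages of these libraries in cluster 14. In D1_mixed 1 they held 24 of 27 Btg2 UMIs, and in D1_mixed 3 they held 21 of 31 Btg2 UMIs and 50 of 57 Egr1 UMIs. Without them, macrophages had 13.5 and 32.2 CPM for Btg2 and 36.1 and 22.5 for Egr1, against 804 and 418 for Jun.

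The test of this difference called 3 of 9 genes as lower, against 2.97% of all genes. Egr1 had a difference of -3.29 (SE 0.84, edgeR adjusted p = 0.02902), Btg2 of -3.14 (SE 0.86, adjusted p = 0.03691) and Jun of -2.74 (SE 0.59, adjusted p = 0.01676). The 6 other genes had -2.52 (Dusp1), -1.26 (Atf3), -1.18 (Junb), -0.75 (Jund), -0.31 (Fos) and 0.34 (Ier2) and did not pass. Only 2 libraries stood at D1, with 28 and 54 macrophages. Without the cells of cluster 14, Egr1 (-1.91, edgeR adjusted p = 0.2566) and Btg2 (-1.24, adjusted p = 0.5296) lost their calls, and Jun kept its call (-2.64, adjusted p = 0.02131). With cells thinned to 1000 UMIs none was called, at -1.33 for Egr1, -1.59 for Btg2 and -2.47 for Jun (adjusted p = 0.05595). All 3 calls were also lost without D1_mixed 1, D1_mixed 3 or D10_mixed 2, where Jun had -2.14, -3.1 and -2.49 (adjusted p = 0.1466, 0.1103 and 0.05159). Without D10_mixed 1, Btg2 and Egr1 lost theirs (adjusted p = 0.09382 and 0.06155), and Btg2 without D2_resident 1 or scaling (adjusted p = 0.05342 and 0.05154).

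Dendritic-like cells and macrophages were compared in 10 libraries. There, 2 of 10 genes were higher in dendritic-like cells and 4 lower, against 23.3% and 24% of all genes, which is near the background for the higher genes. Atf3 was lower in 10 of 10 libraries, at a median of 36.9 CPM (25.0 to 97.5) against 243 (58.9 to 399), with a change of -2.66 (SE 0.32, edgeR adjusted p = 4.627e-06). Dusp1 had -1.33 and was lower in 8 of 10, Fos had -1.11 and was lower in 7 of 10, and Egr1 had -0.50 but was lower in 5 of 10 and higher in 5 (edgeR adjusted p = 0.001377, 0.004826 and 0.04507). Ier2 and Btg2 were higher in 10 of 10 libraries (0.82 and 0.75, adjusted p = 2.334e-05 and 0.00544). Egr1 lost its call without any of 5 libraries, at -0.29 without D3_infiltrating 1 (adjusted p = 0.2751), in DESeq2 (-0.35, adjusted p = 0.2855) and with no scaling (-0.42, adjusted p = 0.1061). Jun, Junb, Jund and Fosb had -0.28, 0.32, 0.26 and 0.35 and did not pass. A call was also lost by Btg2 after thinning (0.31, adjusted p = 0.1166) and with at least 50 cells (0.46).

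Neutrophil-like cells had the most calls. In 5 libraries, 6 of 10 genes were higher than in macrophages and 1 lower, against 23.8% and 27.1% of all genes. Dusp1 was higher in 5 of 5, at a median of 626 CPM (219 to 853) against 110 (43.3 to 157), with a change of 2.40 (SE 0.49, edgeR adjusted p = 0.001759). Btg2 was higher in 5 of 5, at 336 against 75.4 (2.17, SE 0.47, adjusted p = 0.002415), as was Junb, at 1603 against 412 (1.46, adjusted p = 0.003043), and Jund (1.40, adjusted p = 0.000239). Egr1 was higher in 4 of 5 (1.66, adjusted p = 0.02423) and Ier2 in 5 of 5 (0.73, adjusted p = 0.02565). Fos was lower in 5 of 5, at 58.3 against 133 (-1.08, adjusted p = 0.02599). Jun (0.42, edgeR adjusted p = 0.1213) and Atf3 (-0.91, adjusted p = 0.05235) did not pass, and Atf3 passed as lower in DESeq2 (-1.06, adjusted p = 0.02058). Ier2 lost its call in 7 settings and Egr1 without D1_infiltrating 2 (0.97, adjusted p = 0.1572) or D2_mixed 2 (1.62, adjusted p = 0.05725). Fos lost its call without D3_conflict 1 (-0.73, adjusted p = 0.06552) or D2_mixed 2 (-1.0, adjusted p = 0.05746), and neutrophil-like cells had a median of 2154 UMIs. Fosb, with low counts everywhere, had 1.17 (adjusted p = 0.1468).

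The deposited clusters were made from these same cells, so their levels are a description. Means are of CPM over libraries with at least 20 cells of the cluster. Cluster 1, which is exactly the 1887 control cells, had 363 (SD 36.5, n = 2) for Btg2 and 682 (SD 196) for Jun, the highest of the 6 other microglial clusters being 135 in cluster 4 and 490.0 in cluster 7, which had 1 library. Cluster 4, mainly of D10, held that 135 (SD 49.9, n = 6) for Btg2 and also 265 for Jun, against 22.3 and 81.3 in cluster 5, mainly of D1. The SDs of Btg2 in clusters 4 and 5 (49.9 and 11.6) leave the means apart. Atf3 had 28.1 in cluster 1 and 150 in cluster 4.

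Among macrophage clusters, different genes peaked in different clusters. Cluster 13 (234 cells) had the highest mean of all 16 clusters for Fos (527, SD 370, n = 4), Egr1 (119.8, SD 65.0), Ier2 (424, SD 79.8) and Btg2 (490.1, SD 432), with a low Jun of 168. Cluster 14 (118 cells, in 2 libraries with 20 or more) led in Jun (1209, SD 313) and Atf3 (929, SD 695), at a median of 1488 UMIs per cell. Cluster 16, the neutrophil-like cells, led in Junb (1271, SD 591), Jund (532, SD 129) and Dusp1 (584, SD 279). The SDs of Btg2 in clusters 13 and 16 overlap. So do those of Jun in clusters 14 and 16, where cluster 16 had 1069 (SD 333, n = 5). Summed over all cells, other clusters led for some genes. Cluster 14 then had 266 CPM for Egr1 against 79.7 in cluster 13, and 910.3 for Dusp1 and 618 for Jund against 506 and 522 in cluster 16. Of its 92 Egr1 UMIs, 50 came from 13 cells of D1_mixed 3 and 37 from 1 cell of D21_mixed 1, which the minimum of 20 cells leaves out of the means. Btg2 was then 376 in cluster 1 and 372 in cluster 13. Fosb was at most 10.3 in any cluster, in the dendritic-like cluster 15, and that mean rested on D21_infiltrating 1 (74.9 CPM in 25 cells). Without that library it was 3.11 (SD 3.46, n = 9), below the 6.79 of cluster 16 over its 5 libraries. Without D3_conflict 1, cluster 16 had 1435 for Junb, 551 for Jund and 675 for Dusp1 (n = 4), and cluster 13 had 577 for Fos (n = 3).

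Clusters 11 and 12 held most of the macrophage transcripts of these genes. Cluster 12 had 16.4% of all macrophage UMIs but 67.7% of those of Btg2, 50.2% of Dusp1, 48.6% of Egr1, 43.4% of Fos, 41.9% of Junb and 37.4% of Ier2. Cluster 11 had 36.7% of the UMIs and 53.7% of those of Jun and 52.7% of Atf3, but 15.0% of Btg2. Without D3_conflict 1, cluster 12 had 13.2% of the UMIs, 61.2% of those of Btg2 and 44.2% of Dusp1, and cluster 11 had 34.8% and 52.7% of those of Jun. Over all libraries, cluster 9, with 22.8% of the UMIs, held 1.5% of Dusp1, 4.1% of Btg2 and 18.5% of Atf3. D3_mixed 3 gave 2676 of its 3554 cells, and without that library cluster 9 had 8.0% of the UMIs, 0.8% of Dusp1, 3.5% of Btg2 and 3.9% of Atf3. By the mean over libraries the order for Btg2 was another, at 60.3 CPM (SD 54.1, n = 9) in cluster 9, 24.3 (SD 17.3, n = 10) in cluster 11 and 20.6 (SD 10.7, n = 8) in cluster 8, and the SDs of clusters 9 and 11 overlap.

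Library and cluster were not the same thing. Within cluster 11, Btg2 had 46.9 CPM in D3_infiltrating 1 and 5.47 in D3_mixed 3, Jun had 1118 and 601, and Atf3 had 501 and 443. In cluster 9, Btg2 was 69.9 and 3.30 in the same libraries and Jun 365 and 261. In cluster 8, Btg2 was 24.0 and 5.48 and Jun 477 and 292. These D3_mixed 3 cells numbered 48 in cluster 11, with 1 Btg2 UMI, and 134 in cluster 8, and the D3_infiltrating 1 cells numbered 61 in cluster 9. D3_mixed 3 was the lower library for Btg2 and Jun in all 3 clusters, with no replicate of either library.

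**Figure D5:**
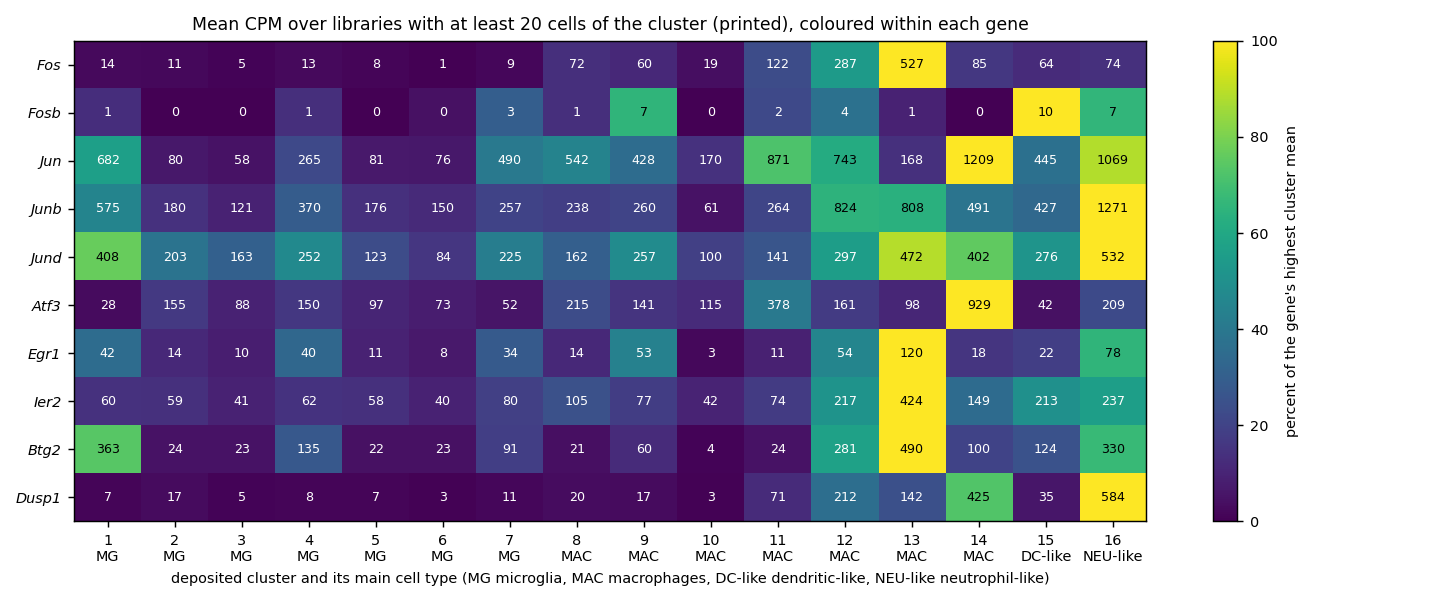
Mean CPM (printed in each cell) of the 10 genes (rows) in the 16 deposited clusters (columns), over libraries with at least 20 cells of the cluster and coloured by percent of the gene's highest cluster. By these means Fos, Egr1, Ier2 and Btg2 peak in cluster 13, Jun and Atf3 in cluster 14, and Junb, Jund and Dusp1 in cluster 16, while summed over all cells Egr1, Dusp1 and Jund peak in cluster 14.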

How the data were processed

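The deposited matrices hold raw UMI counts of genes by cells for 25 droplet libraries, with a table of cells with cluster, cell type and pool codes and the percent of mitochondrial counts, from which the medians of deposited percent values were taken. Cell Ranger 3.1.0 and GRCm38/mm10 are named in the submitters' processing notes. The annotation and cell filters are not given in the sources used here. All values were whole, and cell sums equalled the deposited totals. Counts were summed per library and cell type (at least 20 cells) and fitted with edgeR 4.0.16 in R 4.3.3: TMM, filterByExpr, the quasi-likelihood test, time point and sex as terms, or the library as a block within libraries. P-values are 2-sided and adjusted over all genes tested by Benjamini-Hochberg, with 0.05 as the threshold. Microglia were fitted over 17 resident and mixed libraries and macrophages over 15 infiltrating and mixed ones. The fit was tested on simulated data first. Cells were neither filtered further nor screened for doublets, and free RNA was not subtracted. A marker counted for a cell type at 20 CPM or more and 2 times its level outside that type (5 CPM added on each side). Shares are from cells thinned to 1000 UMIs.

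The members and lists were chosen with earlier results of these data known. The genes among the 10 that could be tested are given in every comparison, one by one or as a range; of each other list, at most the 2 largest rises and 2 largest falls past the threshold are named at D1, D3 and D10 in microglia and D10 in macrophages, and the 10 genes most correlated with the members' mean. Alternatives were other scalings (no scaling was added after seeing the data, as were the fits without cluster 14 and the cluster values without D3_conflict 1, D21_infiltrating 1 or D3_mixed 3), DESeq2 1.42.0, no filter, at least 50 cells, thinning, leaving out cluster 2, pool and sort terms, mixed libraries alone, each library left out and a replicate block. Whole-series matrices were not used. Promoters and positions are from RefSeq (GRCm38.p6) and GENCODE.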

Additional observations from a re-analysis of the deposited data

Results flagged for a closer look

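A library was marked where its gap to the nearest of the others, relative to the group's range, passed Dixon's 95% critical value, which chance does in about 5% of groups. Of 29 groups of 4 or more libraries, 3 held such a library, and 2 of these were the same one. Jun in macrophages at D1 was 385 scaled CPM in D1_mixed 3, against 864 to 933 in the other libraries. Jun in microglia at D3 was 128 in D3_mixed 3, against 32.6 to 55.2, and Atf3 there was 147, against 44.0 to 67.4. Without D3_mixed 3 the rise of Atf3 from D3 to D10 passed the test (1.63, edgeR adjusted p = 0.003588), and so did its fall from D1 to D3 (-1.30, adjusted p = 0.008534).

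The change from D1 to D10 differed between macrophages and microglia in a test of the difference itself (edgeR) for Jun (-2.74), Egr1 (-3.29) and Btg2 (-3.13), each lower in macrophages. None passed after thinning. The cells of cluster 14 held most macrophage UMIs of Btg2 in D1_mixed 1 and D1_mixed 3, and of Egr1 in D1_mixed 3. Without these cells, Jun alone passed (-2.64, edgeR adjusted p = 0.02131), with Egr1 at -1.91 (adjusted p = 0.2566) and Btg2 at -1.24 (adjusted p = 0.5296).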

How the results depend on the processing

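Beside 146 reported gene results, 3356 values under other settings kept their side of the threshold, 131 lost a call, 67 gained one and 4 called values changed sign. Of the 3356, 103 changed sign, all of them past the threshold in neither setting. The sign changes of called values all came with the sequencing pool term: Btg2 -0.98, Jun -1.73 and Jund -0.18 in microglia D10 vs D3, and Jun 0.33 in D3 vs Ctrl. That term shares its information with time, and the cause was not tested. Counts of called genes moved by over 1.5 times as follows. With the pool term they were 0 for D10 vs D3, 3 for D2 vs Ctrl and 1 for D3 vs Ctrl. With mixed libraries alone (fewer samples) they were 0 for D1, D3, D10 and D21 vs Ctrl and 1 for D10 vs D3. Without scaling they were 4 for D10 and 4 for D21 vs Ctrl, and without a filter 2 for D21. After thinning they were 3 for D10 vs D3 and 0 for the macrophage minus microglia difference, which had 1 without cluster 14.

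Leaving out each library gave 4 to 6 called genes in microglia for D1 vs Ctrl, 1 to 6 for D2, 5 to 7 for D3, 1 to 3 for D10, 1 to 1 for D21, 2 to 5 for D3 vs D1 and 1 to 6 for D10 vs D3, and 0 for the sort. In macrophages it gave 0 for D2, 0 to 1 for D3, 2 to 4 for D10 and 0 for D21. It gave 4 to 5 for macrophages vs microglia, 5 to 6 for dendritic-like and 6 to 7 for neutrophil-like cells, and 0 to 4 for the difference of differences. With D21 microglia in 1 library, leaving that library out gave no value, nor did the difference without cluster 2.

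Over the D1, D3 and D10 mixed libraries, a replicate block called 5 genes for D10 vs D3 (4 shared with those reported) and 3 for D3 vs D1, and the same libraries unblocked called 2 and 2. Same-numbered libraries correlated at -0.20 to 0.13 over 7 pairs, so the numbers do not pair them. Depth limits Fos, Fosb and Dusp1 in microglia, with medians under 10 CPM, and the sums of 23 and 28 cells.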
